A study of Mus musculus with 312 samples.

Results

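The genes described here are 10 members of the epidermal growth factor (EGF) family, taken by symbol from the 25136 genes used: the 4 receptors Egfr, Erbb2, Erbb3 and Erbb4, and the 6 ligands Areg, Tgfa, Hbegf, Ereg, Btc and Nrg1. They were measured by single-cell RNA-seq in 312 mammary cells of FVB/NJ mice, labelled basal, of which 237 came from adult and 75 from pregnant animals. Among the adult cells, 112 carry the mark (2) in their titles (marked cells) and 125 do not (unmarked cells), and nothing in the labels says what the mark stands for. No transgene, drug or other treatment is named, and the labels tie no cell to an age in weeks, a day of pregnancy or an animal. The study describes its pregnant animals as at mid-pregnancy and names more than 1 mouse per group, but its cell numbers per group differ from those of the labels. The study obtained adult basal cells by flow cytometry as lineage-negative CD29-high CD24-positive cells, whereas its description of pregnant animals speaks of the whole epithelium, so that the name basal for the pregnancy cells rests on the labels.

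The ErbB receptors are tyrosine kinases that pair on binding ligand and signal through the Ras-MAPK and PI3K-Akt pathways. EGFR binds amphiregulin, TGF-alpha, HB-EGF, epiregulin and betacellulin, ERBB3 and ERBB4 bind the neuregulins, and HB-EGF, epiregulin and betacellulin can also bind ERBB4, while ERBB2 has no known ligand and acts as the partner of the others. Most ligands are made as membrane-bound precursors that ADAM proteases release, and in the mammary gland amphiregulin from hormone-sensing luminal cells drives ductal growth while neuregulin 1 and ERBB4 take part in alveolar development.

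All ligands of the family share an EGF-like domain with 6 cysteines in a fixed order, and the coding stretch of that domain is shown for the ligands whose levels set the cells apart. The stretches were read from the GENCODE vM21 transcripts (build GRCm38) from the first to the last cysteine codon, with cysteine codons in capitals.
Nrg1-203: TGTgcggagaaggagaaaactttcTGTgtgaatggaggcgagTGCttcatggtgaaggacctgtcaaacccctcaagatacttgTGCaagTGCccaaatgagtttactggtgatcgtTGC
Nrg1-213: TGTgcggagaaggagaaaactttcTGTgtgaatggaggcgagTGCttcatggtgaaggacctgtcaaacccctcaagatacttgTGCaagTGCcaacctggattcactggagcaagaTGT
Tgfa-201: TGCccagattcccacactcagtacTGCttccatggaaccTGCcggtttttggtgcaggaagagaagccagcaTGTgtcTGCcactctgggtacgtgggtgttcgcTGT
Ereg-201: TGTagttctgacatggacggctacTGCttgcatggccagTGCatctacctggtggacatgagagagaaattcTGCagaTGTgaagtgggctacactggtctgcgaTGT
Areg-201: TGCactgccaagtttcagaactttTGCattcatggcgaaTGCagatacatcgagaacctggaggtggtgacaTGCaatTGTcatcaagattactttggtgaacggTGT
The Tgfa stretch (plus strand, chr6:86263200-86269960), the Ereg stretch (plus strand, chr5:91088496-91089111) and the Areg stretch (plus strand, chr5:91143614-91144364) each hold 108 coding bases in exons 3 and 4, with 7, 4, 10, 1 and 8 codons between successive cysteines. The Nrg1 stretch (minus strand) is 120 bases long, with 7, 5, 13, 1 and 8 codons between them, in exons 6 and 7 of both transcripts. Nrg1 has a pair of forms of this domain, the beta form in 8 of 12 coding transcripts (Nrg1-203, chr8:31837698-31849398) and the alpha form in 4 of 12 (Nrg1-213, chr8:31838298-31849398). Their first 94 bases are identical and 108 of 120 bases are the same. The deposited counts are summed over each gene, so that reads of the alpha and beta forms cannot be told apart here.

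Cells under 50000 assigned read pairs (reads in what follows) or under 1000 genes, mitochondrial and ribosomal protein genes apart, were set aside, which left 81 marked, 58 unmarked and 71 pregnancy cells. The median number of assigned reads was 174910, 101320 and 230645, and the median mitochondrial share 9.65%, 15.6% and 18.4%, in that order, so that depth and RNA quality move with the sets. At least 6 of 11 core basal genes reached 100 CPM (counts per 1e+06 assigned reads) in 76 of 81 marked, 51 of 58 unmarked and 70 of 71 pregnancy cells. Genes of another lineage list, or too few core basal genes, set apart 13 marked, 12 unmarked and 5 pregnancy cells. The labels name no animal for any cell, so each title set is 1 sample and no test between sets was possible. Differences are given as values. Intervals (95%, exact, two-sided) for medians and for shares of cells reflect sampling of cells within a set. Intervals for shares of reads reflect counting of reads. None covers variation between animals. Where no cell had a read, 3 cells over the number of cells is printed as the limit, a one-sided bound that is smaller than the upper end of the two-sided interval in the plot of detection. A gene is called higher or lower where its mean CPM plus 10 differed by 2-fold or more, in the same direction, from both adult sets, among the 8412 genes for which the 3 set means averaged 10 CPM or more. By this rule 736 genes (8.75%) were higher and 436 (5.18%) were lower in pregnancy than in both adult sets. Between the adult sets, 1350 genes (16.0%) were higher and 1431 (17.0%) were lower in unmarked than in marked cells by 2-fold or more.

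Nrg1, the neuregulin ligand, was the most abundant family member in every set and the only one of the 10 called higher in pregnancy. Tgfa was the only one called lower, a call that was lost when the highest cell of each set was left out. Of the 6 members that passed the level filter, Egfr, Areg, Hbegf and Ereg were called neither higher nor lower, and the 4 that did not pass it were Erbb2, Erbb3, Erbb4 and Btc. One call in each direction among 6 genes is too few to set against the 8.75% and 5.18% of all genes. Areg and Ereg were called higher in unmarked than in marked cells, beside 16.0% of all genes. No member was called lower there, beside 17.0% of all genes, and 6 members are again too few to set against these shares. Areg passed the level filter only through its unmarked mean, 68.0 CPM against 2.37 CPM in marked and 1.59 CPM in pregnancy cells. Without the highest cell of each set Areg did not pass it. In cells with core basal genes and no other lineage list the Areg means were 8.83 CPM in unmarked and 2.47 CPM in marked cells. Areg did not pass the level filter among those cells, and with 10 CPM added these means differed by less than 2-fold. Its call was therefore lost there on both counts.

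**Figure D1:**
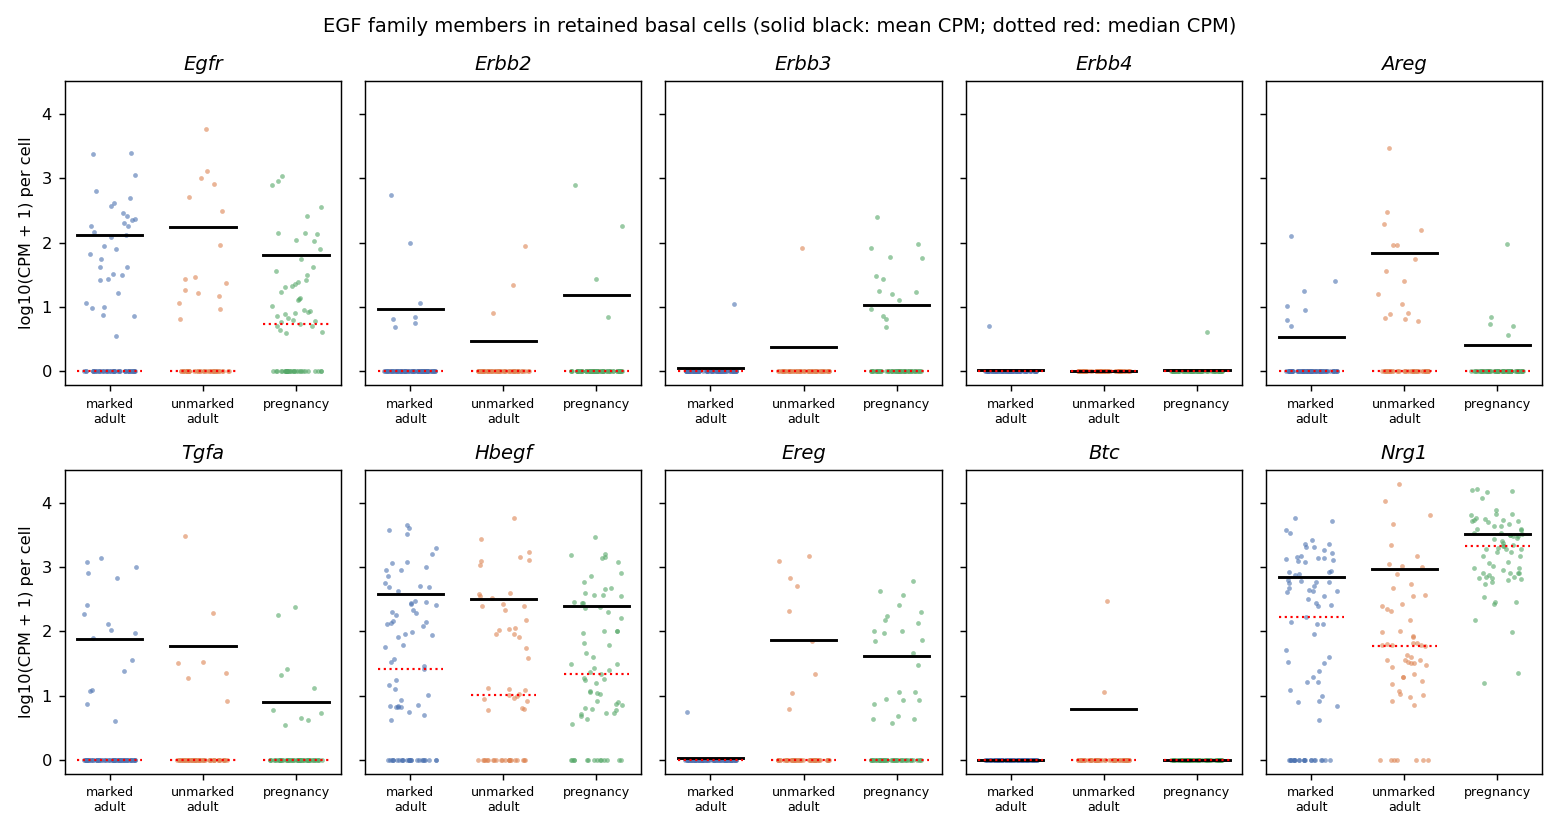
Each point is 1 retained cell and its height is log10(CPM + 1) of the gene named above the panel, for 81 marked adult, 58 unmarked adult and 71 pregnancy cells; the solid line is the mean CPM and the dotted line the median CPM of the set. Nrg1 in pregnancy is the one panel group with no cell at 0, and most other members are at 0 in most cells.

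Nrg1 (chr8:31807452-32891609, GRCm38) ranged from 0 to 5905 CPM in marked cells, with a median of 169 CPM (22.8 to 437). In unmarked cells it ranged from 0 to 20015 CPM, with a median of 58.9 CPM (31.3 to 85.0). In pregnancy cells it ranged from 14.9 to 16681 CPM, with a median of 2128 CPM (1204 to 3165). The median intervals of the adult sets overlap each other and neither overlaps that of pregnancy, although single cells overlap: 12 of 139 adult cells, 7 marked and 5 unmarked, lay above the pregnancy median. The mean was 694 CPM in marked, 929 CPM in unmarked and 3323 CPM in pregnancy cells, which is 4.79-fold above marked and 3.58-fold above unmarked cells. On the log2 scale with 10 CPM added the differences were 2.24 and 1.83. Ranked by the smaller of the 2 increases against the adult sets, 183 of the 8412 genes lay above Nrg1. One unmarked cell, number 168, held 37.2% of that set's sum, and without it the unmarked mean was 594 CPM.

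The number of cells with much Nrg1 differed as well as the mean. Nrg1 reached 100 CPM in 44 of 81 marked cells (54.3%, 42.9 to 65.4%), 19 of 58 unmarked cells (32.8%, 21.0 to 46.3%) and 68 of 71 pregnancy cells (95.8%, 88.1 to 99.1%). It reached 1000 CPM in 19 marked, 9 unmarked and 47 pregnancy cells. After each cell was thinned to 50000 reads, so that depth was the same in all, at least 1 read was found in 69.1% (57.9 to 78.9%) of marked, 81.0% (68.6 to 90.1%) of unmarked and 98.6% (92.4 to 100.0%) of pregnancy cells. Thinning did not level the number of genes found, with medians of 2313, 2209.5 and 3199 genes per thinned cell, in that order. Whether this affected the detection of Nrg1 and the other members was not tested. In the 46 unmarked and 68 marked cells with core basal genes and no other lineage list, the mean was 963 and 770 CPM, against 3451 CPM in the 66 such pregnancy cells.

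**Figure D2:**
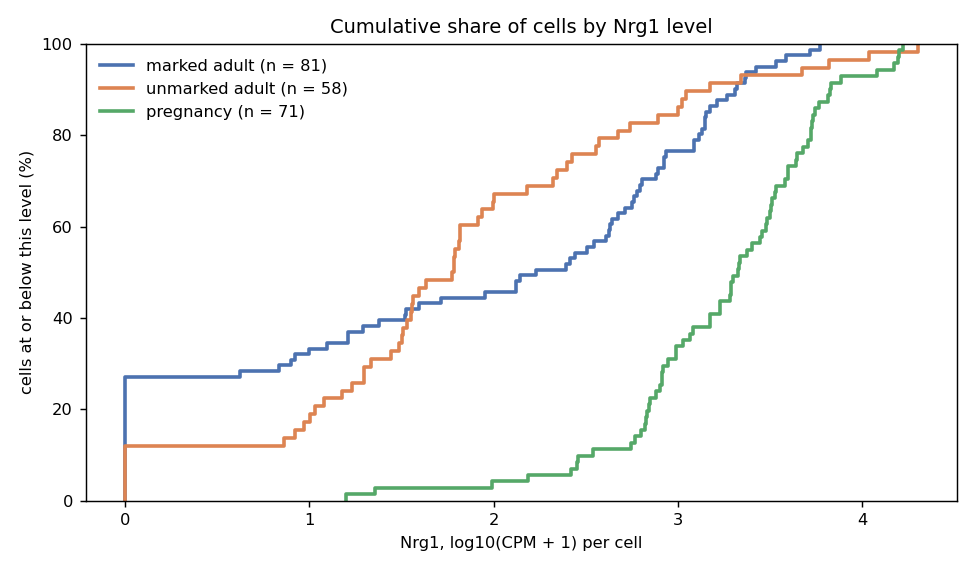
Cumulative share of retained cells (vertical axis, %) at or below each Nrg1 level (horizontal axis, log10 of CPM + 1), for 81 marked adult, 58 unmarked adult and 71 pregnancy cells. The pregnancy curve lies to the right up to its median of 2128 CPM and beyond, while the unmarked curve has the highest single cell, at 20015 CPM.

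Nrg1 made up 53.7% of the summed mean CPM of the 10 members in marked cells, 57.0% in unmarked cells and 89.7% in pregnancy cells. Per kilobase of exon (mean RPKM, CPM divided by the exon length that the files give), its level was 330, 442 and 1580, against 162, 136 and 103 for Hbegf, the member next in order. Counted per cell on the same scale, Nrg1 was the highest member in 42 of the 77 marked cells with any member, 31 of 57 unmarked cells and 67 of 71 pregnancy cells. The median RPKM intervals of Nrg1 and Hbegf overlap in both adult sets and do not overlap in pregnancy. Below Hbegf the order by mean RPKM was Egfr, Tgfa, Areg in marked cells, Areg, Egfr, Ereg in unmarked cells and Egfr, Ereg, Erbb2 in pregnancy cells, and apart from Egfr in pregnancy, with a median RPKM of 0.69, the medians of these and all lower members were 0, so that neighbours below Hbegf were not separated beyond their intervals.

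Among the receptors, Egfr (chr11:16752203-16913907), the receptor of the EGF-type ligands, was the one found in many cells. It ranged from 0 to 2470 CPM in marked cells (mean 129, median 0), from 0 to 5806 CPM in unmarked cells (mean 172, median 0) and from 0 to 1094 CPM in pregnancy cells (mean 64.1, median 4.47). After thinning it was detected in 37.0% (26.6 to 48.5%) of marked, 22.4% (12.5 to 35.3%) of unmarked and 29.6% (19.3 to 41.6%) of pregnancy cells, intervals that all overlap. The mean was 2.02-fold higher in marked and 2.69-fold higher in unmarked than in pregnancy cells, and on the scale with 10 CPM added the log2 differences of pregnancy were -0.91 and -1.30, so the first stayed short of 2-fold. Without thinning it was found in 42.0%, 27.6% and 57.7% of cells, at median depths where 1 read was worth 5.72, 9.87 and 4.34 CPM. As a mean of log2 values Egfr in pregnancy differed by -0.27 from marked and by 0.24 from unmarked cells, so the direction against the unmarked set differed between these measures. A single unmarked cell, number 123, held 58.1% of that set's sum, and the mean without it was 73.4 CPM. The Egfr locus overlaps the gene Egfros, which has 812 reads in the retained cells, and use of strand in counting is not stated.

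Erbb2 (chr11:98412484-98437716), the partner receptor without a ligand of its own, was near the limit of detection. Its mean was 8.40 CPM in marked, 2.00 CPM in unmarked and 14.3 CPM in pregnancy cells, and 1 cell held 81.1%, 75.9% and 79.0% of these sums, so that the means without it were 1.61, 0.49 and 3.05 CPM. After thinning it was detected in 3 of 81, 3 of 58 and 3 of 71 cells. It overlaps Mien1, which has 1090 reads in the retained cells.

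Erbb3 (chr10:128567523-128589635), the kinase-impaired receptor of neuregulins, was at a mean of 0.12 CPM in marked, 1.41 CPM in unmarked and 9.55 CPM in pregnancy cells, under the level filter. One marked cell with 2 reads and 1 unmarked cell with 8 reads accounted for the adult values, and 152 reads came from 15 pregnancy cells. All 15 had title numbers from 34 to 66, where 33 cells were retained, and Erbb3 was listed at 0 in the 31 retained cells with lower and the 7 with higher numbers. The unmarked cell, number 126, had 1 of the 11 core basal genes and reached 100 CPM for 2 Schwann cell, 2 fibroblast, 1 luminal progenitor and 1 mature luminal gene, which meets no other lineage list. After thinning Erbb3 was detected in 1 of 81 (1.23%, 0.031 to 6.69%), 1 of 58 (1.72%, 0.044 to 9.24%) and 10 of 71 cells (14.1%, 6.97 to 24.4%). The pregnancy interval overlaps that of unmarked cells and lies just above that of marked cells. All 10 pregnancy cells were among the 66 with core basal genes and no other lineage list. Erbb4 (chr1:68031884-69108576), the other neuregulin receptor, had 1 read in all marked cells, none in 58 unmarked cells and 1 in all pregnancy cells. After thinning it was found in 1 of 71 pregnancy cells and in 0 of 139 adult cells, and a count of 0 in so many leaves room for a share of 2.16%.

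**Figure D3:**
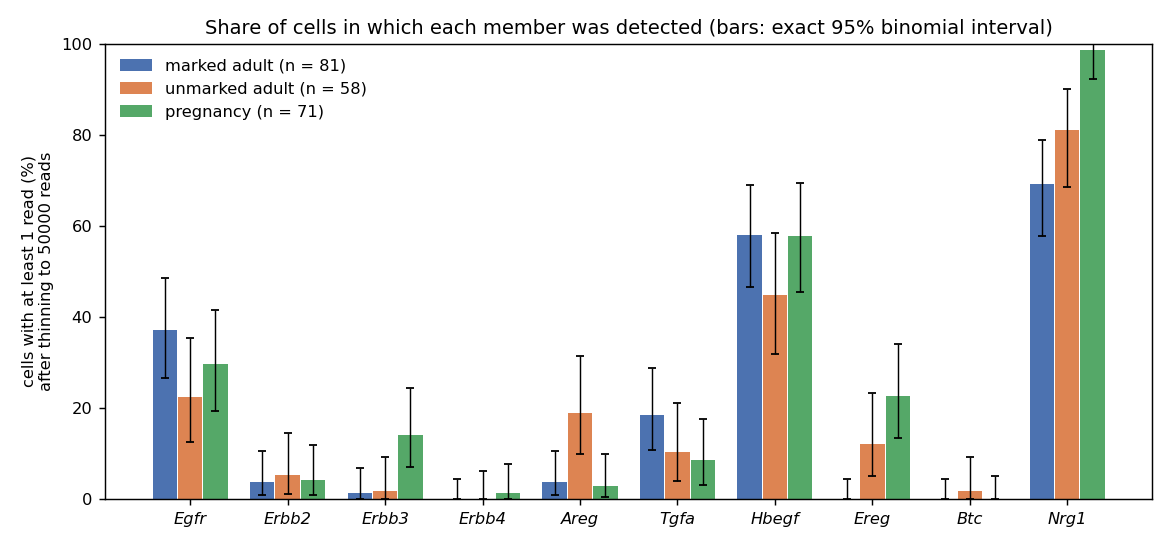
Share of retained cells (vertical axis, %) with at least 1 read of each member after each cell was thinned to 50000 reads, in 81 marked adult, 58 unmarked adult and 71 pregnancy cells, with exact 95% binomial intervals. Nrg1 and Hbegf stand highest in all sets, Egfr follows, and Areg stands highest in unmarked cells at 19.0% while Ereg stands highest in pregnancy cells at 22.5%.

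Among the ligands of EGFR, Hbegf (chr18:36504927-36515805), which encodes heparin-binding EGF-like growth factor, was the most abundant in every set. Its range was 0 to 4493 CPM in marked, 0 to 5861 CPM in unmarked and 0 to 2997 CPM in pregnancy cells, with medians of 24.8, 9.09 and 20.6 CPM whose intervals all overlap. The means were 385, 323 and 244 CPM, and the log2 differences of pregnancy with 10 CPM added were -0.64 against marked and -0.39 against unmarked cells. It was detected after thinning in 58.0% of marked, 44.8% of unmarked and 57.7% of pregnancy cells. The share of cells at 100 CPM or more was 38.3%, 32.8% and 32.4%. In unmarked cells, the 12 cells outside the core basal definition held 41.8% of the Hbegf sum. In the other 46 the mean was 237 CPM, below the 261 CPM of the 66 pregnancy cells within that definition.

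Tgfa (chr6:86195038-86275744), which encodes TGF-alpha, ranged from 0 to 1378 CPM in marked cells, 0 to 3024 CPM in unmarked cells and 0 to 240 CPM in pregnancy cells, with a median of 0 in each set. The means were 73.9, 57.4 and 6.93 CPM, 10.7-fold higher in marked and 8.28-fold higher in unmarked than in pregnancy cells. With 10 CPM added the log2 differences of pregnancy were -2.31 and -1.99. Ranked by the smaller of the 2 decreases against the adult sets, 48 of the 8412 genes fell further than Tgfa. The unmarked value rested on 1 cell: number 168, also the cell with the most Nrg1, held 90.8% of the sum, and without it the unmarked mean was 5.35 CPM, below the pregnancy mean. When the highest cell of each set was left out, the log2 difference was -2.31 against marked cells and -0.17 against unmarked cells, and Tgfa was not called. The lower level therefore held against the marked cells alone, of which 9 of 81 reached 100 CPM against 2 of 71 pregnancy cells. The share with Tgfa after thinning was 18.5% (10.8 to 28.7%), 10.3% (3.89 to 21.2%) and 8.45% (3.16 to 17.5%), and these intervals overlap. All 7 unmarked cells with a Tgfa read had title numbers from 162 to 234, where 30 cells were retained. Tgfa was listed at 0 in the 28 retained unmarked cells with lower numbers.

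Ereg (chr5:91074617-91093649), which encodes epiregulin, was close to absent from marked cells. There it had 1 read, in 1 of 81 cells, and after thinning it was found in 0 of 81, where the limit for a count of 0 is 3.70%. In unmarked cells it ranged from 0 to 1469 CPM (mean 72.3) and was detected in 7 of 58 cells (12.1%, 4.99 to 23.3%). In pregnancy cells it ranged from 0 to 618 CPM (mean 40.9) and was detected in 16 of 71 cells (22.5%, 13.5 to 34.0%). Both of the latter sets had intervals above that limit, and they overlap each other. The pregnancy mean was above the marked and below the unmarked mean, with log2 differences of 2.34 and -0.69 on the scale with 10 CPM added, so the direction against adult cells depended on the title set. All 16 pregnancy cells, and 5 of the 7 unmarked cells, had core basal genes and no other lineage list. Without thinning, most retained pregnancy cells with title numbers of 58 or more had an Ereg read, and most with lower numbers had none.

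Areg (chr5:91139599-91148432), which encodes amphiregulin and lies beside Ereg on the same chromosome, was found chiefly in unmarked cells. Its mean was 2.37 CPM in marked, 68.0 CPM in unmarked and 1.59 CPM in pregnancy cells. The highest values in the sets were 125, 2937 and 95.5 CPM. After thinning it was detected in 3 of 81 (3.70%, 0.77 to 10.4%), 11 of 58 (19.0%, 9.87 to 31.4%) and 2 of 71 cells (2.82%, 0.34 to 9.81%). The unmarked interval overlaps that of marked cells in its lowest part and lies above that of pregnancy cells. One unmarked cell, number 130, held 74.4% of the sum, and without it the mean was 17.7 CPM. That cell had 0 of 11 core basal genes, 7 of 7 pan-luminal genes and 3 mature luminal genes at 100 CPM or more. The 12 unmarked cells outside the core basal definition had a mean of 295 CPM and held 89.7% of the sum, against a mean of 8.83 CPM in the other 46. All 16 unmarked cells with an Areg read had title numbers from 120 to 168, where 34 cells were retained, and it was listed at 0 in the 24 retained cells with higher numbers. In the 68 marked cells with core basal genes and no other lineage list the mean was 2.47 CPM.

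Btc (chr5:91357261-91402994), which encodes betacellulin, had no read in 81 marked and 71 pregnancy cells, where the limits for a count of 0 are 3.70% and 4.23%. In unmarked cells it had 31 reads in 2 cells, numbers 126 and 130, the first of which held 96.6% of the sum. These are the cells described above, with 1 and 0 core basal genes. Of the EGF family ligands that are not members here, Egf, Epgn, Nrg2, Nrg3 and Nrg4, none of the 5 passed the level filter.

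**Figure D4:**
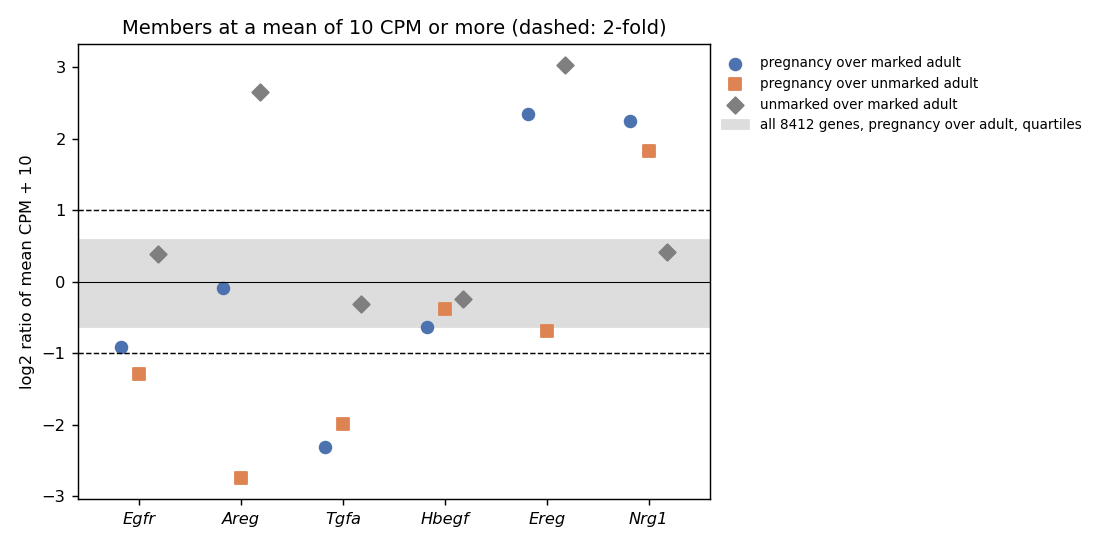
Log2 ratio of mean CPM + 10 (vertical axis) for the 6 members with a mean of at least 10 CPM over the 3 sets, with 3 comparisons per gene; dashed lines mark 2-fold and the grey band holds the middle quartiles of all 8412 genes for pregnancy over adult. Nrg1 lies above and Tgfa below the dashed lines against both adult sets, and Areg and Ereg are the members in which the adult sets differ by over 2-fold. The Tgfa value against unmarked cells rests on 1 cell, number 168.

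Receptor and ligand transcripts were next compared within cells, with detection counted after thinning to 50000 reads. Egfr was found with at least 1 of the 5 EGFR ligands among the members in 20 of 81 marked (24.7%, 15.8 to 35.5%), 10 of 58 unmarked (17.2%, 8.59 to 29.4%) and 15 of 71 pregnancy cells (21.1%, 12.3 to 32.4%), shares whose intervals overlap. A ligand without Egfr was the more frequent state, in 43.2%, 37.9% and 49.3% of cells. Hbegf was the ligand in 18, 10 and 12 of the cells with both. In unmarked cells Hbegf was detected in 10 of the 13 cells with Egfr (76.9%, 46.2 to 95.0%) and in 16 of the 45 without it (35.6%, 21.9 to 51.2%), and these intervals overlap. The shares with and without Egfr were 60.0% and 56.9% in marked cells and 57.1% and 58.0% in pregnancy cells. A cell with more genes is more likely to show both transcripts, and this was not tested.

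Nrg1 was found mostly without a neuregulin receptor. Nrg1 with Erbb3 or Erbb4 was seen in 1 of 81 marked, 1 of 58 unmarked and 11 of 71 pregnancy cells (15.5%, 8.00 to 26.0%). Nrg1 with neither was seen in 67.9%, 79.3% and 83.1% of cells. Since Nrg1 was detected in 70 of 71 pregnancy cells and these receptors in few cells of any set, the counts largely repeat receptor detection. They do not show whether Nrg1 and its receptors tend to occur in the same cells. Erbb2 and Erbb3, the pair through which neuregulin signals are commonly relayed, were found together in 0 of 139 adult and 0 of 71 pregnancy cells, where the limits for a count of 0 are 2.16% and 4.23%. With Erbb2 in 3 and Erbb3 in 10 of the 71 pregnancy cells, this does not show whether they occur together. Any of the 4 receptors was detected in 40.7% of marked, 27.6% of unmarked and 40.8% of pregnancy cells, and any of the 6 ligands in 82.7%, 87.9% and 98.6%.

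Across cells within a set, the levels of Nrg1, Hbegf and Egfr were only weakly related. Spearman's rho between Nrg1 and Hbegf was 0.25 in 81 marked, -0.096 in 58 unmarked and 0.075 in 71 pregnancy cells. Nrg1 correlated with the number of genes found after thinning in marked (0.44) and unmarked cells (0.36) and not in pregnancy cells (-0.031). With the mitochondrial share its rho was -0.35 in pregnancy cells, against -0.020 in marked and 0.017 in unmarked cells. With the summed level of 14 proliferation genes it was 0.34 in marked, 0.10 in unmarked and -0.23 in pregnancy cells. Among 2668 genes detected in at least 25% of cells of each set, the gene most like Nrg1 was Crispld2, with a mean rho of 0.33 over the 3 sets, followed by Gatad2b and Huwe1 at 0.27 each. For Hbegf the closest were Zfp36l2 at 0.32, Anxa3 and Anp32b at 0.31 each. These are descriptions of sparse counts, and cells of a set share depth and capture. No correction was made for the number of genes per cell, with which Nrg1 itself correlated in both adult sets.

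Of 62 further genes in 7 lists of the ErbB pathway, 50 passed the level filter, 7 were called higher in pregnancy and 1 was called lower, beside 8.75% and 5.18% of all genes. A single list had at most 10 genes past the filter, too few to set against these shares. The median log2 difference of pregnancy over adult was 0.13 over the 50 genes and -0.030 over all 8412. Feedback inhibitors, which damp the receptors and the MAPK pathway, had 3 of 10 called higher and none lower, with a median of 0.78. Of these Spry2, an inhibitor of receptor signalling to MAPK, had means of 203, 164 and 502 CPM in marked, unmarked and pregnancy cells, and was detected in 63.0%, 74.1% and 95.8% of them. Lrig3, a relative of Lrig1, had means of 11.1, 26.8 and 70.3 CPM, with 42.8% of the pregnancy sum in 1 cell. Lrig1, which promotes loss of ErbB receptors and lies just beyond the number of genes to be named, had means of 25.1, 41.2 and 95.1 CPM. Errfi1, which binds and inhibits EGFR, was the most abundant gene of the list at 1008, 1681 and 2262 CPM and was not called, with log2 differences of 1.16 and 0.43. Spred1, an inhibitor of Ras signalling, had means of 41.0, 275 and 26.3 CPM with log2 differences of -0.49 and -2.97, and Socs3, an inhibitor of cytokine receptor signalling, had 33.4, 39.9 and 23.0 CPM with -0.40 and -0.60.

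The PI3K-Akt list had 2 of 8 called higher, beside 8.75% of all genes and again too few to set against that share. They were Pik3ca, the catalytic subunit p110-alpha, at 70.7, 68.6 and 210 CPM, and Pik3r2, a regulatory subunit, at 2.08, 2.08 and 62.5 CPM. For Pik3r2, 48.5% of the pregnancy sum was in 1 cell. In the shedding list of 6 genes, the protease Adam10 was called higher at 4.62, 19.6 and 55.7 CPM, and Rhbdf2, which carries ADAM17 to the cell surface, was called lower at 42.9, 16.7 and 2.57 CPM. Both of these calls were lost when the highest cell of each set was left out, since 1 cell held 77.3% of the Adam10 sum in pregnancy and 68.3% of the Rhbdf2 sum in unmarked cells. The other 6 calls were kept. None of the 8 adaptors and ubiquitin ligases and none of the 8 growth factor induced targets that passed the filter was called in either direction, with medians of -0.19 and 0.015.

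**Figure D5:**
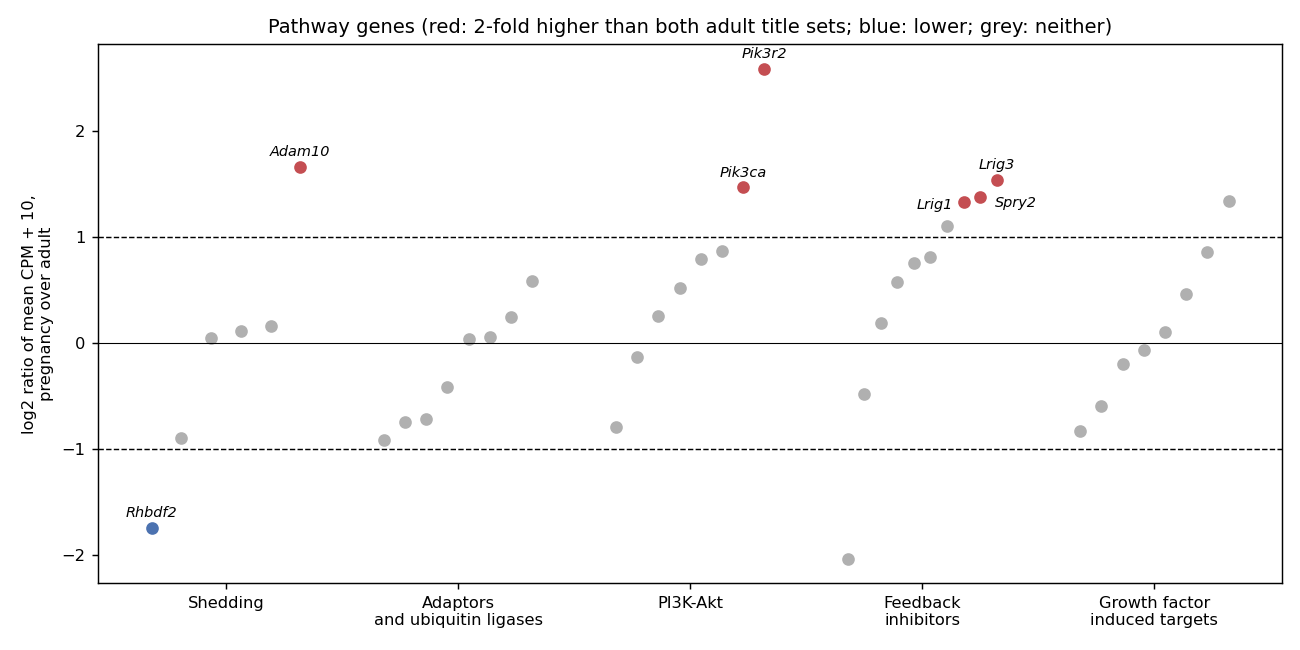
Each point is 1 pathway gene with a mean of at least 10 CPM, placed by list (horizontal axis) and by its log2 ratio of mean CPM + 10 of pregnancy over adult cells (vertical axis); dashed lines mark 2-fold, and colours show genes of the 5 lists drawn that were called higher (6) or lower (1) than both adult sets. Feedback inhibitors hold 3 of these 6 higher calls, and Adam10 and Rhbdf2 in the shedding list are the calls that rest on single cells.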

How the data were processed

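The authors deposited whole-number read counts per Entrez gene for each cell, with the gene's exon length. Per the submitters' processing notes, reads were handled with Subread 1.5.0 and featureCounts on mm10, and the use of strand is not given in the sources used here. Symbols came from a RefSeq GRCm38.p6 gene table, which matched 25275 of 27179 identifiers. Removal of 15 mitochondrial and 124 ribosomal protein genes left 25136. Counts were scaled to CPM per cell over these genes and averaged with equal weight per cell, with Python 3.11.15, numpy 2.4.6, scipy 1.17.1 and pandas 2.3.3. For detection, each cell was thinned to 50000 reads, at which 1 read is 20 CPM. Retained cells held 51464 to 405910 assigned reads. Shares have exact Clopper-Pearson intervals and medians have intervals from binomial ranks. The reads carry no molecular identifiers, so an interval for a share of reads treats each read as a separate count. No interval covers variation between animals. All cells of a title set were treated as 1 sample. No 2 cells had identical counts. No doublet caller was run.

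The 10 members, the pathway and marker lists and the 2-fold rule were chosen with earlier results of these data known. Named beside the members were pathway genes called in pregnancy, up to 6 per direction by the smaller log2 difference, and the 3 genes most like a member detected in at least 25% of cells of every set, with rho of at least 0.2 in each. Lrig1, Errfi1, Spred1, Socs3 and the title numbers of Areg, Erbb3, Ereg and Tgfa cells were singled out after their values were seen. The values of 1 pathway list are not reported here gene by gene. The alternatives were other scalings, pseudocounts, filters on cells and genes, and leaving out the highest cell of each set.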

Additional observations from a re-analysis of the deposited data

Results flagged for a closer look

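The cells left out by the filter on depth and gene number also held reads of the family, which no comparison above used. In 98 adult cells left out, 1610 of 1171743 assigned reads (0.137%, 0.131 to 0.144%) were of the 10 members, against 0.139% in the retained adult cells, and Nrg1 had reads in 63 of the cells left out. The make-up of these totals differed by member. In the adult cells left out, 1017 reads were of Nrg1, 298 of Hbegf and 104 of Areg. In the retained adult cells the numbers were 16556, 8099 and 678 of 30637 reads. In 4 pregnancy cells left out, 279 of 93619 reads (0.298%, 0.264 to 0.335%) were of the members, against 0.401% in the retained pregnancy cells, and Nrg1 had reads in all 4.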

How the results depend on the processing

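Nrg1 was higher in pregnancy by 2-fold or more against both adult sets under all alternatives, its log2 difference over adult cells ranging from 1.83 to 3.90 over 13 alternatives. Tgfa was lower in all 13, from -3.10 to -0.38. The number of members called lower, 1 as reported, was 0 with the mean of log2 values, a pseudocount of 100 CPM, the stricter cell filter of 100000 reads and 1500 genes, without the highest cell of each set, or a filter of 50 CPM, which Tgfa does not reach. It was 2 with a pseudocount of 1 CPM, which added Egfr. Egfr ranged from -1.30 to -0.059 and Hbegf from -0.64 to 0.022, the latter changing sign with the mean of log2 values. Against unmarked cells alone, Hbegf also changed sign in cells with core basal genes and no other lineage list (0.14). It did so too under the stricter cell filter (0.28). Against marked cells it stayed lower under both, at -0.58 and -0.71. Ereg ranged from -0.69 against unmarked to 2.34 against marked cells. In an alternative chosen after seeing the data, without the highest cell of each set, pathway genes called numbered 6 higher and 0 lower. Egfr with a ligand was found in 6.47% of adult and 5.63% of pregnancy cells at 100 CPM or more, and in 49.3% of pregnancy cells when 1 read without thinning sufficed. Nrg1 with Erbb3 or Erbb4 was found at 100 CPM or more in 0 of 139 adult cells and in 1.41% of pregnancy cells, and in 7.04% of pregnancy cells after thinning to 20000 reads. Depth limits the members under 10 CPM, for which 1 read was worth 4.34 to 9.87 CPM in a cell of median depth. No paired analysis was possible because the labels name no animal and each set is 1 sample.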
